A study of Sus scrofa with 23 samples.

Results

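Solute carriers are the membrane proteins that move sugars, amino acids, metals, vitamins, nucleotides and inorganic ions across the plasma membrane and across the membranes of organelles. The genes described here are those with an SLC symbol on a pig expression array, read in macrophages before and after exposure to bacterial lipopolysaccharide (LPS). A gene was taken if at least 1 probe set was annotated to it alone and its symbol began with SLC and a digit. SLC7A1, SLC11A2 and SLC39A14 were left out, and a gene with several probe sets was represented by its brightest one on average. This gave 117 genes, covered by 169 probe sets, among 6765 genes with such a probe set and 23999 probe sets tested. Of the 117, 37 had more than 1 probe set, and 3 are named after a carrier without being one.

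The cells were bone marrow-derived macrophages, which are bone marrow cells differentiated in culture with recombinant human CSF1. They came from 3 Large White x Landrace F1 pigs. Cells were collected 2, 7 and 24 h after LPS of Salmonella enterica serotype minnesota Re 595 was added at 100 ng/ml, and at 0 h without it, so all groups share the breed cross, the culture and the growth factor. Each pig gave duplicate cultures at each time, except 1 culture for pig 3 at 24 h, which makes 23 arrays. All values are log2 of the deposited RMA intensity, and a difference is between means of 3 pigs, each pig being the mean of its duplicate cultures.

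Transporters of the SLC families set what a macrophage can take up or release. Glucose carriers and lactate carriers feed and drain glycolysis, amino acid carriers supply protein and glutathione synthesis, and metal carriers of the phagosome and plasma membrane move iron, copper and zinc, which bacteria also need. Carriers of the mitochondrial inner membrane exchange citrate, ADP and ATP, acyl-carnitine, glycine and nucleotides between mitochondrion and cytosol.

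The times and pigs used below were not taken from the sample titles. They were inferred from the column order of the deposited table, in which columns 1 to 6 were read as 0 h, columns 7 to 12 as 2 h, columns 13 to 18 as 7 h and columns 19 to 23 as 24 h, with neighbouring columns read as duplicate cultures of 1 pig. The titles and the column order name the same time for 5 of 23 arrays. The array most similar to a given array was its duplicate for 22 of 22 arrays by column order, and for 0 of 22 as labelled. EIF1AY, which marks male animals, separated 8 arrays at 3.60 to 4.08 from the others at 8.16 to 9.45. That split matched the stated sex of the pig for 23 of 23 arrays by column order and for 15 of 23 as labelled. Among the SLC genes the median absolute difference between duplicates was 0.103 by column order and 0.219 as labelled. The column order was adopted because the titles disagreed with array similarity, so the likeness of duplicates describes that choice and is no separate test of it. Nor can that likeness tell which block of columns is which time. No record in the sources used here states that the columns run in this order, so each result below holds only if they do.

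With times and pigs as labelled, limma called 0 of the 117 genes in any of the 5 comparisons or over all times, and the lowest adjusted p over all times was 1. At an unadjusted p under 0.05 the labelled times gave 4 genes for 2 h against 0 h, 7 genes for 7 h against 0 h, 2 genes for 24 h against 0 h and 3 genes over all times. The 5 arrays on which titles and column order name the same time can be read without choosing between them. On these arrays, 9 of 11 genes called at 2 h lay beyond both agreeing 0 h arrays in the direction of the fit, as did 55 of 59 called at 7 h and 46 of 46 called at 24 h. These arrays are part of the fit, so this is a description and no separate test.

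By column order, 70 of 117 SLC genes (59.8%) differed among the 4 times, against 64.4% of all 6765 genes (limma moderated F test, adjusted p under 0.05, pig as a block). At 2 h against 0 h, 5 genes were higher (4.27%, against 5.17% of all genes) and 6 were lower (5.13%, against 9.19%). At 7 h against 0 h, 19 were higher (16.2%, against 17.5%) and 40 were lower (34.2%, against 34.0%). At 24 h against 0 h, 20 were higher (17.1%, against 18.4%) and 26 were lower (22.2%, against 28.3%). Between successive times, 15 were higher at 7 h than at 2 h (12.8%, against 14.7%) and 31 were lower (26.5%, against 22.7%). At 24 h against 7 h, 25 were higher (21.4%, against 19.5%) and 15 were lower (12.8%, against 14.7%). Most of these shares lie near those of all genes, while the lower shares at 2 h and 24 h were below them, and no test of the SLC genes as a group was made. The account below is of which genes moved and when. The median difference of the 117 genes was -0.04 at 7 h and -0.02 at 24 h against 0 h, and that of all genes was -0.06 and -0.03. RNA from whole cultures was measured, so fewer cells of a type and less RNA per cell cannot be told apart.

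Every called gene moved the same way in 3 of 3 pigs in each comparison. The calls come from a fit to these same pigs, which favours genes whose pigs agree, so this is no separate test. The p-values rest on 3 pigs, and leaving out 1 pig costs calls. At 2 h against 0 h, 2 of 11 calls held whichever pig was left out, with counts of 2 without pig 2 and 3 without pig 3. At 7 h against 0 h, 33 of 59 held, with 38 called without pig 3. At 24 h against 0 h, 28 of 46 held. For 7 h against 2 h, 22 of 46 held, with 28 called without pig 1 and 30 without pig 3. For 24 h against 7 h, 15 of 40 held, with 23 called without pig 1 and 21 without pig 3. The 7 h and 24 h comparisons share the same 0 h samples, so their values are given side by side and their likeness is not read as a result.

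Of the 70 genes that differed over time, 32 had time means at least 1 log2 unit apart. By time of highest mean, 12 of the 32 peaked at 0 h, 3 at 2 h, 6 at 7 h and 11 at 24 h. By time of lowest mean, 10 were lowest at 0 h, 2 at 2 h, 16 at 7 h and 4 at 24 h. The commonest courses were highest at 0 h and lowest at 7 h, with 9 genes, and lowest at 7 h and highest at 24 h, with 6 genes. The counts of size and of peak time were not made for all genes, so they describe the SLC genes without a comparison.

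**Figure D1:**
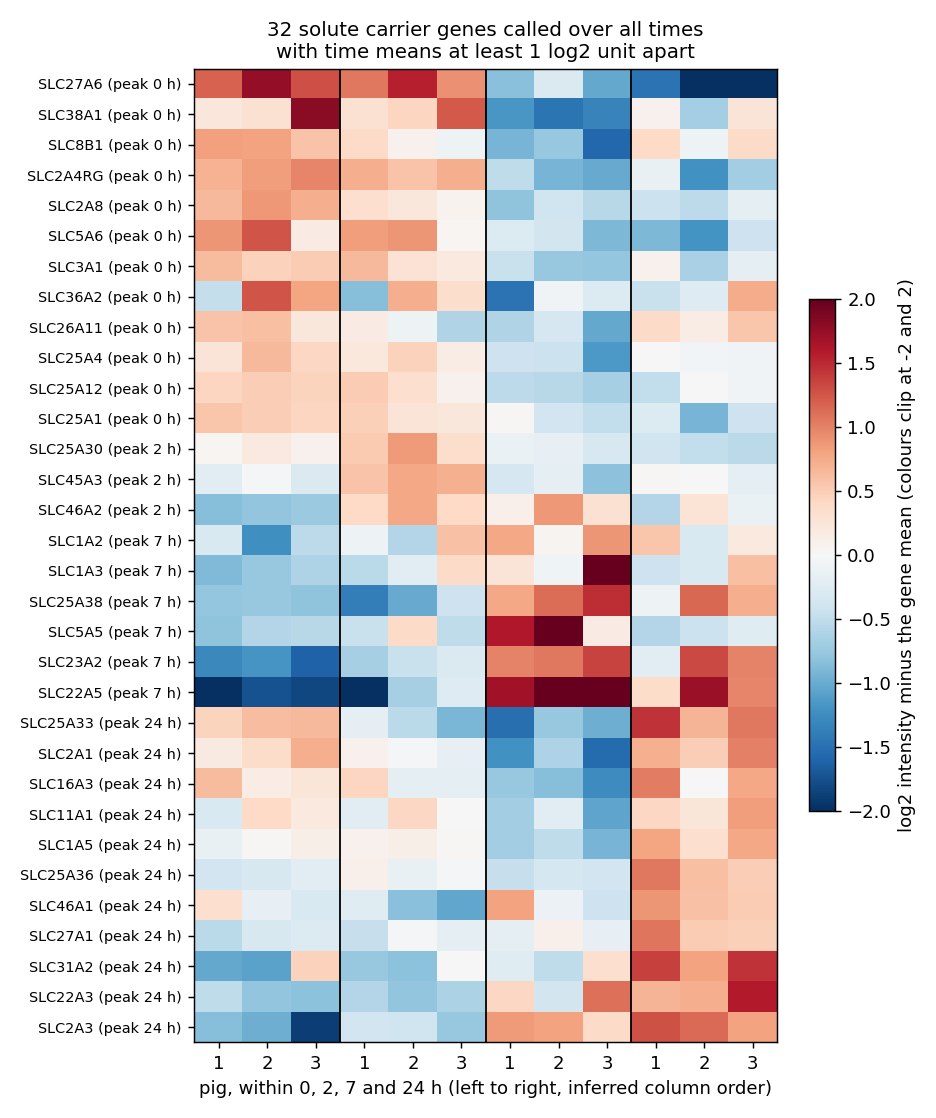
The 32 SLC genes that differed over time and had time means at least 1 log2 unit apart are rows, and the 12 pig-by-time means are columns. Colour is the log2 intensity minus the gene's mean, clipped at 2 either way, and rows run by the time of the highest mean, with 12 genes peaking at 0 h and 11 at 24 h.

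Among 17 carriers of vitamins, lipids and organic ions, 10 differed over time (58.8%, against 64.4% of all genes). Against 0 h, 4 were higher (23.5%, against 17.5% of all genes) and 3 lower (17.6%, against 34.0%) at 7 h, and 6 were higher (35.3%, against 18.4%) and 1 lower (5.88%, against 28.3%) at 24 h. SLC22A5, the plasma membrane carnitine carrier, showed the largest rise of any SLC gene. Its log2 levels in pigs 1, 2 and 3 were 5.84, 6.26 and 6.19 at 0 h, 5.51, 7.35 and 7.74 at 2 h, 9.68, 10.23 and 10.20 at 7 h, and 8.37, 9.73 and 8.98 at 24 h. All 7 h and 24 h arrays lay above all 0 h arrays, while at 2 h pigs 2 and 3 were above their 0 h level and pig 1 was below it. The difference was 3.94 ± 0.33 (SE, n = 3 pigs) at 7 h, or 15.3-fold, with a limma adjusted p of 4.1e-05. At 24 h it was 2.93 ± 0.33, or 7.62-fold (limma adjusted p = 0.00014). At 2 h the difference of 0.77 ± 0.33 did not pass (limma adjusted p = 0.18).

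SLC23A2, a sodium-coupled carrier of ascorbate (vitamin C), followed a like course. Its levels in pigs 1, 2 and 3 were 5.93, 6.04 and 5.60 at 0 h, 6.55, 6.78 and 6.93 at 2 h, 8.21, 8.27 and 8.57 at 7 h, and 6.99, 8.54 and 8.21 at 24 h. No 2 h, 7 h or 24 h array overlapped the 0 h arrays, and pig 1 was the lowest at 24 h. The gene was 5.62-fold higher at 7 h (log2 difference 2.49 ± 0.28, limma adjusted p = 0.00014) and 4.16-fold higher at 24 h (2.06 ± 0.28, limma adjusted p = 0.0004). The 2 h difference of 0.89 ± 0.28 missed the threshold (limma adjusted p = 0.068). SLC23A1, the other ascorbate carrier measured, differed from 0 h by 0.10 at 7 h and 0.11 at 24 h on its brightest probe set and was not called. Its other probe set was higher by 0.27 at 7 h (limma adjusted p = 0.027) and differed by -0.05 at 24 h, not called.

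SLC22A3, a carrier of organic cations and monoamines, had levels of 5.36, 4.58 and 6.04 at 7 h and 5.62, 5.68 and 6.53 at 24 h, against 4.44, 4.15 and 4.12 at 0 h, with no overlap with 0 h at either time. The rise was 1.71 ± 0.26 at 24 h (3.26-fold, limma adjusted p = 0.00088) and 1.09 ± 0.26 at 7 h (limma adjusted p = 0.0088). Without pig 3 the 7 h rise was 0.68 and still called.

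In the SLC46 family, SLC46A2 and SLC46A1 split by time. SLC46A2 had levels of 9.62, 9.996 and 9.62 at 2 h, against 8.37, 8.44 and 8.48 at 0 h. It was then 9.33, 10.09 and 9.53 at 7 h and 8.65, 9.50 and 9.10 at 24 h. Its 2 h and 7 h arrays lay clear of the 0 h arrays and its 24 h arrays overlapped them. The 2 h rise of 1.32 ± 0.14 (2.49-fold, limma adjusted p = 0.00044) was the largest of any SLC gene at that time, and at 24 h the difference was 0.65 ± 0.14 (limma adjusted p = 0.0057). The 24 h call was lost without pig 2, without pig 3 and without the pig block (limma adjusted p = 0.052, 0.054 and 0.057). SLC46A1, the proton-coupled folate carrier, read 8.29, 7.79 and 7.65 at 0 h, 7.72, 7.12 and 6.93 at 2 h, 8.76, 7.84 and 7.54 at 7 h, and 8.85, 8.55 and 8.47 at 24 h. It fell by 0.66 on the log2 scale at 2 h (limma adjusted p = 0.011) and stood 0.71 ± 0.13 above 0 h at 24 h (limma adjusted p = 0.0024). The step between them, 24 h against 2 h, was 1.37 ± 0.13 (limma adjusted p = 7.9e-05). Without pig 2 or pig 3 the 2 h fall was not called (limma adjusted p = 0.13 and 0.093), and without the pig block neither the 2 h nor the 24 h difference was (limma adjusted p = 0.28 and 0.12). The other SLC46A1 probe set, which was dimmer, differed from 0 h by -0.11 at 2 h and 0.20 at 24 h, neither called.

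SLC27A6, a fatty acid transport protein that also activates long-chain fatty acids, showed the largest fall. Its levels in pigs 1, 2 and 3 were 9.27, 9.84 and 9.37 at 0 h, 9.13, 9.64 and 9.001 at 2 h, 7.25, 7.80 and 7.05 at 7 h, and 6.61, 5.98 and 6.05 at 24 h. The 7 h and 24 h arrays lay below all 0 h arrays and the 24 h arrays below all 7 h arrays. It was 4.36-fold lower at 7 h (log2 difference -2.12 ± 0.21, limma adjusted p = 7.3e-05) and 9.70-fold lower at 24 h (-3.28 ± 0.21, limma adjusted p = 9.1e-06). The size of the fall rests on this probe set. The other SLC27A6 probe sets, with means of 5.17 and 3.22, were called lower by -0.42 and -0.22 at 7 h and by -0.47 and -0.21 at 24 h. SLC27A1, another member of the family, went the other way at 24 h, with 6.77, 6.22 and 6.18 at 24 h against 5.17, 5.39 and 5.44 at 0 h, a rise of 1.06 ± 0.17 (limma adjusted p = 0.0013). Stromal marker genes also moved at 24 h against 0 h. Of 7 measured, 4 were lower (57.1%, against 28.3% of all genes), LUM by -2.50, DCN by -0.97, COL6A3 by -0.71 and ACTA2 by -0.49. The 1 higher (14.3%, against 18.4%) was COL3A1, by 0.35. The summed linear intensity of the 7 markers was 491 to 2308 at 24 h and 631 to 3175 at 0 h, and the part of stromal cells in the SLC27A6 fall was not tested.

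**Figure D2:**
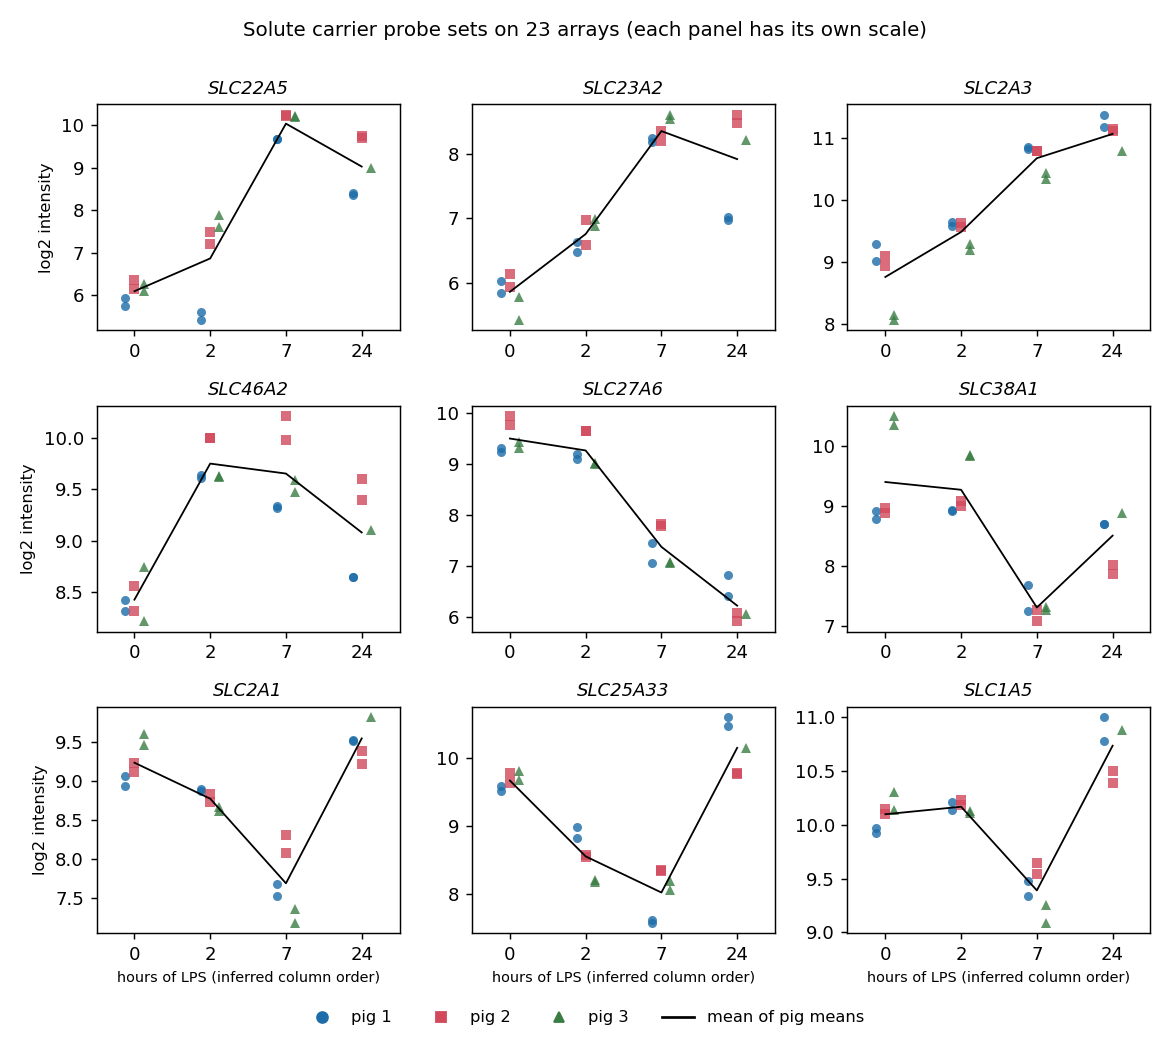
Each panel is 1 SLC gene, with hours after LPS on the x axis and log2 intensity on the y axis. Points are the 23 arrays coloured by pig and the line joins the means of 3 pigs. SLC22A5 and SLC23A2 stand highest at 7 h, SLC2A3 at 24 h and SLC46A2 at 2 h, SLC27A6 is lowest at 24 h, and SLC2A1, SLC38A1, SLC25A33 and SLC1A5 are lowest at 7 h.

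Among 19 carriers of sugars and monocarboxylates, 12 differed over time (63.2%, against 64.4% of all genes). At 7 h 3 were higher (15.8%, against 17.5%) and 6 lower (31.6%, against 34.0%) than at 0 h, and at 24 h 7 were higher (36.8%, against 19.5%) and 2 lower (10.5%, against 14.7%) than at 7 h. The glucose carriers did not move as a block. SLC2A3 (GLUT3), a high-affinity glucose carrier, had levels of 9.14, 9.01 and 8.10 at 0 h, 9.61, 9.59 and 9.24 at 2 h, 10.84, 10.79 and 10.38 at 7 h, and 11.27, 11.12 and 10.79 at 24 h. All 7 h and 24 h arrays were above all 0 h arrays, while 2 h and 0 h arrays overlapped, with pig 3 the lowest at each time. It was higher at 2 h by 0.73 ± 0.13 (limma adjusted p = 0.0052), at 7 h by 1.92 ± 0.13 (3.77-fold, limma adjusted p = 1.6e-05) and at 24 h by 2.31 ± 0.13 (4.95-fold, limma adjusted p = 5.7e-06). The 2 h call was lost without the pig block (limma adjusted p = 0.13) and without pig 2 (limma adjusted p = 0.055).

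SLC2A1 (GLUT1), the widely expressed glucose carrier, dipped and returned. Its levels were 8.998, 9.17 and 9.53 at 0 h, 8.89, 8.79 and 8.65 at 2 h, 7.60, 8.19 and 7.27 at 7 h, and 9.52, 9.30 and 9.82 at 24 h. The 7 h arrays lay below those of 0 h, 2 h and 24 h without overlap. It was 2.92-fold lower at 7 h than at 0 h (-1.55 ± 0.23, limma adjusted p = 0.00067) and 3.63-fold higher at 24 h than at 7 h (1.86 ± 0.23, limma adjusted p = 0.00053). Against 0 h the 24 h difference of 0.31 ± 0.23 did not pass (limma adjusted p = 0.35).

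SLC16A3, a monocarboxylate carrier that exports lactate, was also lowest at 7 h. Its levels were 6.87, 6.39 and 6.49 at 0 h, 6.68, 6.05 and 6.05 at 2 h, 5.48, 5.40 and 4.99 at 7 h, and 7.27, 6.25 and 7.02 at 24 h. The 7 h arrays were below all others, with a difference of -1.29 ± 0.18 from 0 h (limma adjusted p = 0.00042), and 24 h stood 1.56 ± 0.18 above 7 h (2.94-fold, limma adjusted p = 0.00036). SLC2A5, the fructose carrier, differed by -0.77 ± 0.28 at 7 h against 0 h, which missed the threshold (limma adjusted p = 0.057), and was 1.00 ± 0.28 higher at 24 h than at 7 h (limma adjusted p = 0.03). That call was lost whichever pig was left out, with 0.63 without pig 1, and without the pig block.

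SLC2A8, a glucose carrier of internal membranes, was lower at every time after LPS. It had 8.16, 8.06 and 7.91 at 2 h, 7.03, 7.43 and 7.27 at 7 h and 7.40, 7.30 and 7.65 at 24 h, against 8.48, 8.69 and 8.56 at 0 h, with no overlap. The differences were -0.54, -1.33 (limma adjusted p = 6.9e-05) and -1.12 (limma adjusted p = 0.00015), each ± 0.13. The 2 h call was lost without pig 2 or pig 3 (limma adjusted p = 0.13 and 0.17). SLC45A3, of a family of proton-coupled sugar carriers, was called against 0 h at 2 h and not at 7 or 24 h on its brightest probe set. Its levels were 8.12, 8.33 and 8.27 at 2 h against 7.32, 7.52 and 7.27 at 0 h, a rise of 0.86 ± 0.12 (limma adjusted p = 0.0015), and at 7 h it differed from 2 h by -1.13 ± 0.12 (limma adjusted p = 0.00029). Another SLC45A3 probe set was higher by 0.97 at 2 h (limma adjusted p = 0.0094) and lower by -0.63 at 7 h against 0 h (limma adjusted p = 0.025). The dimmest one was called against 0 h at no time.

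The sodium-coupled SLC5 family, counted with the sugar carriers by family, held a pair of members with other substrates. SLC5A5, the iodide carrier, was higher at 7 h only, with 6.95, 7.37 and 5.51 at 7 h against 4.54, 4.75 and 4.78 at 0 h. The rise was 1.92 ± 0.35 (3.78-fold, limma adjusted p = 0.0019), smallest in pig 3, and at 24 h it differed from 7 h by -1.69 ± 0.35 (limma adjusted p = 0.0067), a call lost without pig 1 or pig 2 (limma adjusted p = 0.10 and 0.070). SLC5A6, which carries biotin and pantothenate, had 7.40, 7.29 and 6.76 at 7 h and 6.76, 6.47 and 7.25 at 24 h, against 8.55, 8.92 and 7.84 at 0 h. It was lower by -1.28 ± 0.29 at 7 h (limma adjusted p = 0.0062) and by -1.60 ± 0.29 at 24 h (limma adjusted p = 0.0021), with no overlap at either time. The 7 h call was lost without pig 1 (limma adjusted p = 0.052).

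Among 20 carriers of amino acids and peptides, 10 differed over time (50%, against 64.4% of all genes). At 7 h against 0 h 7 were lower (35%, against 34.0%) and 4 higher (20%, against 17.5%). At 24 h against 0 h 3 were higher (15%, against 18.4%) and 4 lower (20%, against 28.3%). The glutamine carriers were lowest at 7 h. SLC38A1, a sodium-coupled glutamine carrier, read 8.85, 8.93 and 10.43 at 0 h, 8.93, 9.05 and 9.85 at 2 h, 7.46, 7.16 and 7.29 at 7 h, and 8.70, 7.94 and 8.88 at 24 h. Pig 3 was the highest before LPS, and all 7 h arrays lay below the arrays of every other time. The gene was 4.29-fold lower at 7 h (-2.10 ± 0.29, limma adjusted p = 0.00037) and 1.20 ± 0.29 higher at 24 h than at 7 h (limma adjusted p = 0.013). Its 24 h difference from 0 h of -0.90 (limma adjusted p = 0.036) was -0.57 and not called without pig 3, and was lost without pig 2 (limma adjusted p = 0.18). Without the pig block neither 24 h difference was called (limma adjusted p = 0.14 against 0 h and 0.072 against 7 h).

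SLC1A5, an exchanger of glutamine and other neutral amino acids, was lower at 7 h and higher at 24 h. Its levels were 9.95, 10.12 and 10.22 at 0 h, 10.17, 10.21 and 10.12 at 2 h, 9.41, 9.59 and 9.17 at 7 h, and 10.88, 10.44 and 10.87 at 24 h. Neither the 7 h nor the 24 h arrays overlapped those of 0 h. The differences from 0 h were -0.71 ± 0.15 at 7 h (limma adjusted p = 0.004) and 0.64 ± 0.15 at 24 h (limma adjusted p = 0.0081), and 24 h was 2.54-fold above 7 h (1.34 ± 0.15, limma adjusted p = 0.00028). The 7 h call was lost without pig 3 (limma adjusted p = 0.061) and the 24 h call against 0 h without pig 1 (limma adjusted p = 0.12). SLC3A2, the heavy subunit that several SLC7 amino acid exchangers need, was not called at any time, with differences from 0 h of 0.14, -0.03 and 0.05 at 2, 7 and 24 h, each ± 0.08. SLC7A7, one of its partners, was not called either, at -0.24 ± 0.10 at 7 h (limma adjusted p = 0.08).

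Of the glutamate carriers, SLC1A2 and SLC1A3 rose. SLC1A2, a high-affinity glutamate carrier best known from astrocytes, had levels of 7.32, 6.40 and 7.10 at 0 h, 7.52, 7.04 and 8.22 at 2 h, 8.39, 7.67 and 8.51 at 7 h, and 8.18, 7.33 and 7.82 at 24 h. It was higher by 1.25 ± 0.17 at 7 h, without overlap (limma adjusted p = 0.00033), and by 0.84 ± 0.17 at 24 h (limma adjusted p = 0.0036). The 2 h rise of 0.65 (limma adjusted p = 0.032) was 0.42 and not called without pig 3. Without pig 2, or without the pig block, neither the 2 h nor the 24 h rise was called (at 24 h, limma adjusted p = 0.065 and 0.11). SLC1A3, the related carrier, rose by 1.67 ± 0.39 at 7 h (limma adjusted p = 0.007), with 5.09, 4.74 and 7.42 at 7 h against 3.95, 4.08 and 4.21 at 0 h. Pig 3 gave most of that rise, which was 0.90 and still called without pig 3.

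Other amino acid carriers fell. SLC3A1, the heavy subunit of the cystine and dibasic amino acid carrier, had 6.73, 6.42 and 6.41 at 7 h and 7.26, 6.53 and 6.98 at 24 h, against 7.81, 7.64 and 7.69 at 0 h. The differences were -1.19 ± 0.11 at 7 h (2.29-fold lower, limma adjusted p = 6.8e-05) and -0.78 ± 0.11 at 24 h (limma adjusted p = 0.00057). SLC6A8, the creatine carrier, was lower by -0.79 ± 0.11 at both 7 h (limma adjusted p = 0.00038) and 24 h (limma adjusted p = 0.00043). SLC38A9, a lysosomal amino acid sensor and carrier, was lower by -0.64 ± 0.10 at 7 h (limma adjusted p = 0.00091) and -0.61 ± 0.10 at 24 h (limma adjusted p = 0.0014).

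Of 11 metal carriers, 6 differed over time (54.5%, against 64.4% of all genes). At 24 h against 0 h 3 were higher (27.3%, against 18.4%) and 2 lower (18.2%, against 28.3%). On their brightest probe sets the copper carriers were highest at 24 h. SLC31A2, which moves copper across endosomal membranes, had 9.93, 9.88 and 11.42 at 0 h, 10.20, 10.14 and 10.97 at 2 h, 10.72, 10.44 and 11.29 at 7 h, and 12.32, 11.76 and 12.40 at 24 h. Pig 3 stood above the others up to 7 h, and at 24 h every array exceeded every 0 h array. The rise was 3.37-fold at 24 h (1.75 ± 0.21, limma adjusted p = 0.00019), and the 7 h difference of 0.41 ± 0.21 did not pass (limma adjusted p = 0.15). SLC31A1, the copper importer of the plasma membrane, was higher by 0.43 ± 0.09 at 7 h (limma adjusted p = 0.0049) and by 0.71 ± 0.09 at 24 h (limma adjusted p = 0.00035). The 7 h call was lost without pig 1 or pig 2 (limma adjusted p = 0.080 and 0.070). The dimmer probe sets of both genes were called earlier. That of SLC31A1 was higher by 0.35 at 2 h, 0.74 at 7 h and 0.54 at 24 h (limma adjusted p = 0.033, 0.00021 and 0.0013). That of SLC31A2 was higher by 0.52 at 7 h and 1.89 at 24 h (limma adjusted p = 0.023 and 3.0e-05).

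SLC11A1 (NRAMP1), which pumps iron and manganese out of the phagosome, read 8.72, 9.43 and 9.22 at 0 h, 8.81, 9.45 and 9.03 at 2 h, 8.34, 8.82 and 7.98 at 7 h, and 9.44, 9.27 and 9.86 at 24 h. It was lower at 7 h by -0.75 ± 0.23 (limma adjusted p = 0.026) and 1.15 ± 0.23 higher at 24 h than at 7 h (limma adjusted p = 0.0053). Neither difference was called without pig 1 or without pig 3, and the 24 h difference from 0 h of 0.40 ± 0.23 did not pass (limma adjusted p = 0.21). Among the zinc carriers, SLC39A7, which releases zinc from the endoplasmic reticulum, was higher at 7 h by 0.52 ± 0.11 (limma adjusted p = 0.0052), and SLC30A5, which loads zinc into the secretory pathway, was lower by -0.37 ± 0.08 at 7 h (limma adjusted p = 0.0056) and by -0.42 ± 0.08 at 24 h (limma adjusted p = 0.0032). The SLC39A7 call was lost without pig 3 (limma adjusted p = 0.090) and the 24 h call of SLC30A5 without pig 2 (limma adjusted p = 0.058).

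The SLC25 genes were classed as mitochondrial carriers by family number, not by where each protein, such as that of SLC25A17, sits. They made up the largest class, with 21 members, of which 16 differed over time (76.2%, against 64.4% of all genes). At 7 h 3 were higher (14.3%, against 17.5%) and 13 lower (61.9%, against 34.0%) than at 0 h, and at 24 h 5 were higher (23.8%, against 18.4%) and 9 lower (42.9%, against 28.3%). Their median difference was -0.26 at 7 h and -0.25 at 24 h, against -0.06 and -0.03 for all genes. The shares were not matched for brightness. Over all times, limma called 60 of 77 SLC genes with a mean of 6 or more, and 10 of 40 dimmer ones. SLC25A33, a carrier of pyrimidine nucleotides, had levels of 9.55, 9.71 and 9.75 at 0 h, 8.91, 8.56 and 8.19 at 2 h, 7.59, 8.34 and 8.12 at 7 h, and 10.54, 9.77 and 10.15 at 24 h. Its 2 h and 7 h arrays lay below all 0 h arrays, and its 24 h arrays lay above all 7 h arrays. It fell by 1.12 on the log2 scale at 2 h (limma adjusted p = 0.019) and by 1.65 at 7 h (3.14-fold lower, limma adjusted p = 0.00072), and was 4.39-fold higher at 24 h than at 7 h (2.13 ± 0.25, limma adjusted p = 0.0004). The 2 h fall was not called without pig 2 or without pig 3.

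SLC25A36, the other pyrimidine nucleotide carrier, was higher at 24 h, with 8.22, 7.78 and 7.66 at 24 h against 6.79, 6.86 and 6.96 at 0 h (1.02 ± 0.13, limma adjusted p = 0.00028). SLC25A38, which brings glycine into mitochondria for haem synthesis, showed the largest rise of the class against 0 h. Its levels were 8.04, 8.05 and 8.003 at 0 h, 7.43, 7.81 and 8.39 at 2 h, 9.58, 9.93 and 10.29 at 7 h, and 8.71, 9.96 and 9.54 at 24 h. All 7 h and 24 h arrays were above all 0 h arrays, with differences of 1.90 ± 0.23 at 7 h (3.74-fold, limma adjusted p = 0.00018) and 1.37 ± 0.23 at 24 h (limma adjusted p = 0.0013). SLC25A37 (mitoferrin), the iron importer of developing red cells and other cells, was higher by 0.39 ± 0.11 at 24 h (limma adjusted p = 0.023). That call was lost without pig 1, without pig 3 and without the pig block (limma adjusted p = 0.22, 0.092 and 0.056). The other SLC25A37 probe set, which was dimmer, was higher by 0.79 at 24 h against 0 h (limma adjusted p = 0.00059). At 7 h it was lower by -0.51 (limma adjusted p = 0.0058).

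Several other mitochondrial carriers fell. SLC25A1, the citrate exporter, had 7.95, 7.54 and 7.43 at 7 h and 7.66, 7.00 and 7.51 at 24 h, against 8.48, 8.42 and 8.36 at 0 h, with no overlap. It was lower by -0.78 ± 0.13 at 7 h (limma adjusted p = 0.001) and by -1.03 ± 0.13 at 24 h (2.05-fold lower, limma adjusted p = 0.00025). SLC25A20, the carnitine and acyl-carnitine exchanger, was lower at all 3 times, by -0.40 at 2 h, -0.82 at 7 h (limma adjusted p = 0.00017) and -0.59 at 24 h (limma adjusted p = 0.0012), each ± 0.10. SLC25A12, the aspartate and glutamate exchanger, was lower by -1.04 ± 0.14 at 7 h (limma adjusted p = 0.00029) and -0.64 ± 0.14 at 24 h (limma adjusted p = 0.005). SLC25A46, a protein of the outer membrane, was lower by -0.66, -0.67 and -0.54 at 2, 7 and 24 h, each ± 0.14 (limma adjusted p = 0.012, 0.0033 and 0.012). The 2 h calls of SLC25A20 and SLC25A46 were lost without pig 2 or pig 3, and the 24 h call of SLC25A46 without pig 2 (limma adjusted p = 0.15). Without the pig block SLC25A46 was called at 7 h alone.

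The ADP and ATP carriers of the inner membrane moved in different directions. SLC25A4 had 8.81, 8.80 and 8.08 at 7 h against 9.48, 9.88 and 9.65 at 0 h, a fall of 1.11 on the log2 scale (SE 0.15, limma adjusted p = 0.00039). SLC25A5 had 12.65, 12.76 and 13.09 at 7 h against 12.11, 12.17 and 12.09 at 0 h, a rise of 0.71 ± 0.12 (limma adjusted p = 0.001). Arrays of 7 h and 0 h did not overlap for either gene. SLC25A6 was lower by -0.26 ± 0.07 at 7 h (limma adjusted p = 0.017), and SLC25A3, the phosphate carrier, by -0.24 ± 0.07 (limma adjusted p = 0.02), and both calls were lost without pig 2 or pig 3, that of SLC25A6 also without the pig block (limma adjusted p = 0.058). The ADP and ATP carriers are close in sequence, and whether their probes read each other's transcripts was not tested.

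SLC25A30 changed sign over the course. It had 7.59, 7.92 and 7.43 at 2 h against 7.11, 7.27 and 7.17 at 0 h, a rise of 0.46 ± 0.10 (limma adjusted p = 0.014), then 6.93, 6.91 and 6.76 at 7 h and 6.68, 6.58 and 6.53 at 24 h. No array of any later time overlapped those of 0 h. The differences were -0.32 ± 0.10 at 7 h (limma adjusted p = 0.027) and -0.59 ± 0.10 at 24 h (limma adjusted p = 0.0013), and 24 h against 2 h gave -1.05 ± 0.10 (limma adjusted p = 6.7e-05). The 2 h and 7 h calls against 0 h were lost when any 1 pig was left out, and the 7 h call without the pig block (limma adjusted p = 0.059).

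**Figure D3:**
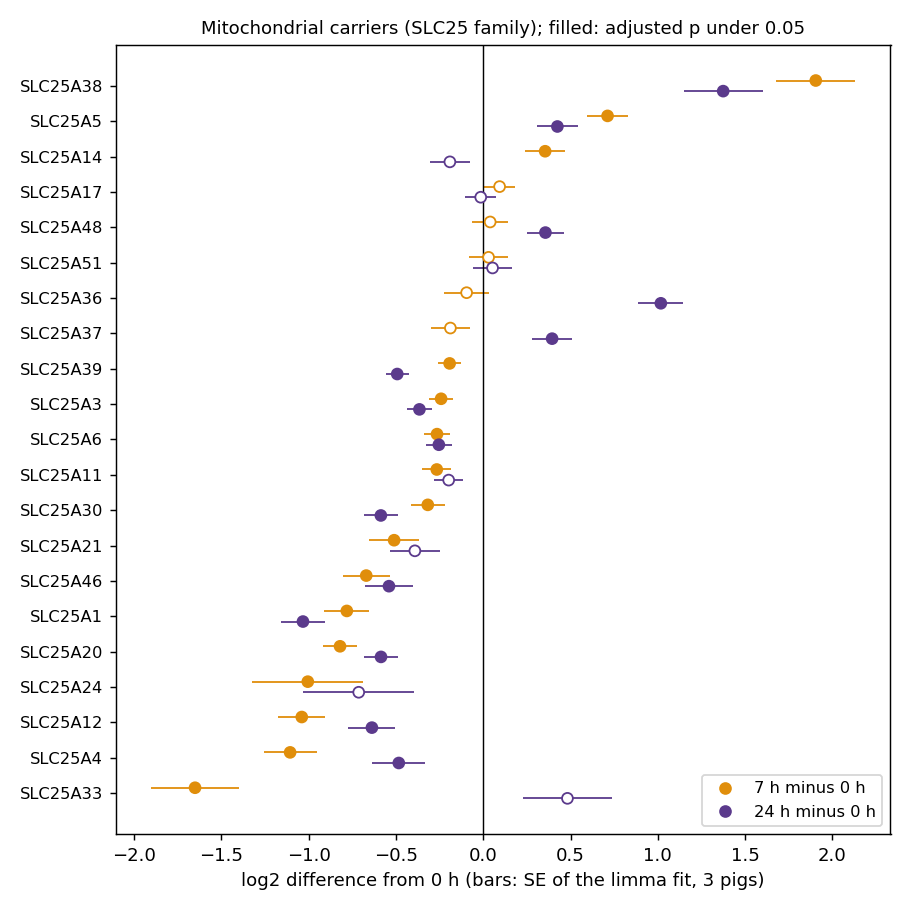
Each row is 1 of 21 SLC25 genes, classed as mitochondrial carriers by family number. The x axis is the log2 difference, 7 h minus 0 h and 24 h minus 0 h in separate colours, with bars of 1 SE from limma. Filled points have an adjusted p under 0.05. SLC25A38 lies furthest right at 7 h (1.90) and SLC25A33 furthest left (-1.65).

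Of 14 carriers of nucleosides, nucleotide sugars and acetyl-CoA, 9 differed over time (64.3%, against 64.4% of all genes). SLC33A1, which moves acetyl-CoA into the endoplasmic reticulum, had 9.64, 9.50 and 9.57 at 7 h against 8.83, 8.61 and 8.63 at 0 h, a rise of 0.88 ± 0.12 (limma adjusted p = 0.00038), and at 24 h it differed from 7 h by -0.97 ± 0.12 (limma adjusted p = 0.00051). Of the 3 other SLC33A1 probe sets, 1 gave a like course (0.89 at 7 h, called, and -0.08 at 24 h against 0 h), 1 differed (-0.08 at 7 h and a called -1.34 at 24 h) and 1 was called at neither time (0.13 and -0.07). SLC35B2, which brings the sulphate donor PAPS into the Golgi, had 7.71, 7.91 and 7.67 at 7 h against 8.66, 8.59 and 8.54 at 0 h. It was lower by -0.83 ± 0.09 (limma adjusted p = 9.8e-05) and 0.61 ± 0.09 higher at 24 h than at 7 h (limma adjusted p = 0.00093). SLC35A3, the UDP-N-acetylglucosamine carrier, was lower at 24 h by -0.49 ± 0.07 (limma adjusted p = 0.00046). SLC35F5 was lower at 2 h by -0.27 ± 0.08 (limma adjusted p = 0.045), a call lost when any 1 pig was left out.

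Of 12 carriers of inorganic ions, 5 differed over time (41.7%, against 64.4% of all genes). At 7 h limma called 4 lower than at 0 h (33.3%, against 34.0% of all genes) and 0 higher (against 17.5%), with 0 higher at an unadjusted p under 0.05 too. SLC8B1, the sodium and calcium exchanger of mitochondria, had levels of 9.49, 9.47 and 9.24 at 0 h, 9.04, 8.75 and 8.56 at 2 h, 7.74, 7.91 and 7.08 at 7 h, and 9.06, 8.56 and 9.04 at 24 h. The arrays of 2, 7 and 24 h lay below all 0 h arrays, though only the 7 h difference passed, at -1.82 ± 0.19 (3.53-fold lower, limma adjusted p = 9.5e-05). It was 1.31 ± 0.19 higher at 24 h than at 7 h (limma adjusted p = 0.001). SLC26A11, a chloride and sulphate carrier, was lower at 7 h by -1.12 ± 0.19 (limma adjusted p = 0.0012) and 1.01 ± 0.19 higher at 24 h than at 7 h (limma adjusted p = 0.0038).

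The pair of bicarbonate and anion carriers that moved at 24 h went opposite ways. SLC4A4, a sodium and bicarbonate carrier, had 5.41, 5.18 and 5.27 at 24 h against 6.14, 6.08 and 5.88 at 0 h, a difference of -0.75 ± 0.07 (limma adjusted p = 5.6e-05). SLC26A6, an exchanger of chloride, bicarbonate and other anions, had 9.22, 9.14 and 9.27 at 24 h against 8.31, 8.45 and 8.64 at 0 h, a difference of 0.75 ± 0.10 (limma adjusted p = 0.00038). Neither gene's 24 h arrays overlapped its 0 h arrays. The SLC4A4 fall rests on this probe set. The other SLC4A4 probe set, with a mean of 4.16, differed by 0.16 at 24 h and was not called (limma adjusted p = 0.15).

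**Figure D4:**
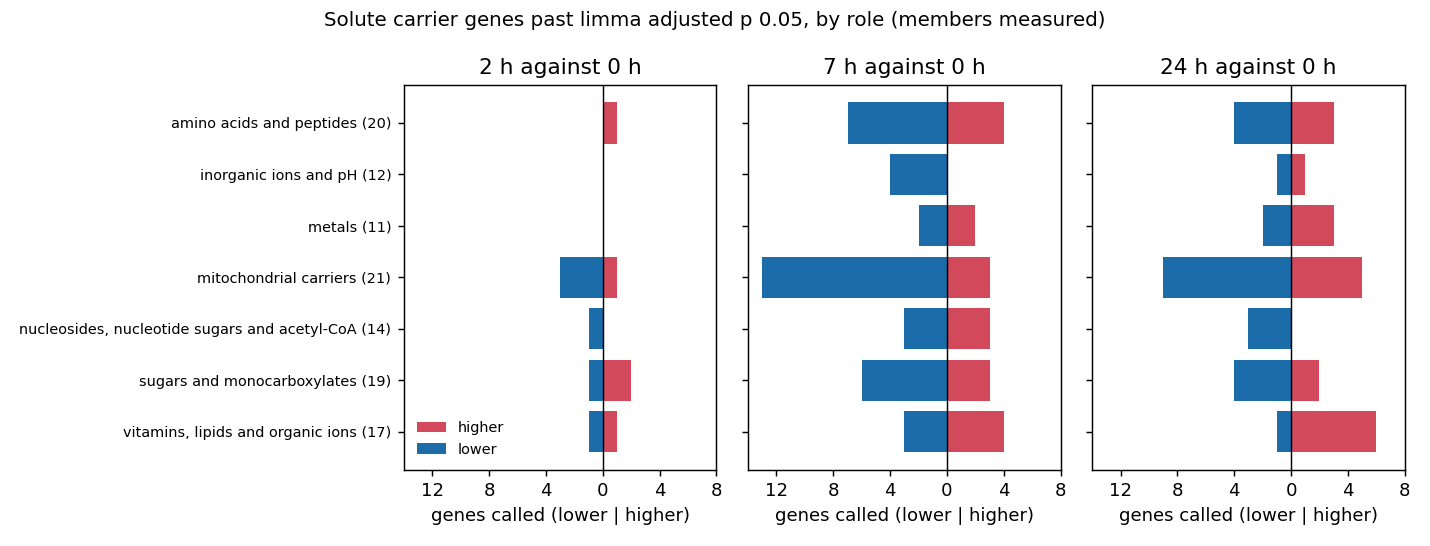
Bars count the SLC genes called higher (right) and lower (left) than 0 h at 2, 7 and 24 h in each of 7 role classes, from limma at an adjusted p under 0.05. Mitochondrial carriers have 13 lower and 3 higher at 7 h, and carriers of vitamins, lipids and organic ions have 6 higher and 1 lower at 24 h.

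Of the 3 genes named after a carrier, 2 differed over time (66.7%, against 64.4% of all genes). SLC2A4RG, a DNA-binding regulator named for the SLC2A4 gene, had 6.57, 6.15 and 6.07 at 7 h and 6.93, 5.88 and 6.38 at 24 h, against 7.77, 7.92 and 8.06 at 0 h. It was lower by -1.66 ± 0.19 at 7 h (3.16-fold lower, limma adjusted p = 0.00016) and -1.52 ± 0.19 at 24 h (limma adjusted p = 0.00028), with no overlap. SLC9A3R1, a scaffold that binds membrane carriers, was lower by -0.79 ± 0.14 at 7 h (limma adjusted p = 0.0016), and SLC9A3R2 was not called at any time.

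Of the 117 genes, 40 had a mean under 6 log2 units over all arrays, and 10 of these 40 differed over time, against 60 of the 77 with a higher mean. In all, 38 of the 117 were called in none of the 5 comparisons between times. These counts by brightness and by comparison were not made for all genes, so they are not read as traits of the SLC genes. Second probe sets were compared for 14 genes named by rule, and not for genes named after their values were seen. Of 21 such probe sets, 19 had the sign of the named one in its largest called comparison, and 15 of them were called. The other 2, for SLC4A4 and SLC30A5, had the opposite sign and were not called. Among genes named later, the other SLC25A3 probe set differed from 0 h by -0.02 at 7 h and was not called. That of SLC38A9 was lower by -0.32 at 7 h, called, and by -0.16 at 24 h, not called. That of SLC26A11 was lower by -0.46 at 7 h, called.

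Genes that use what these carriers bring in were listed by name. Of 23 measured, 15 differed over time (65.2%, against 64.4% of all genes). Against 0 h, 6 were higher (26.1%, against 17.5%) and 7 lower (30.4%, against 34.0%) at 7 h, and 7 were higher (30.4%, against 18.4%) and 7 lower (30.4%, against 28.3%) at 24 h. Hexokinase genes, whose products trap glucose in the cell, went apart, with HK3 at 1.68 and 1.91 and HK1 at -1.20 and -0.69 at 7 h and 24 h (all called). ASNS and PSAT1, which make asparagine and serine, were higher at 24 h by 1.71 and 2.87, and CTPS1, which makes the pyrimidine nucleotide CTP, was lower at 7 h and 24 h by -1.49 and -1.36. GCLC, which starts glutathione synthesis, was lower by -1.83 at 7 h, and its partner subunit GCLM was higher by 1.45.

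Of 5 membrane partners and sodium pump genes measured, 3 differed over time (60%, against 64.4% of all genes). ATP1B3, a subunit of the sodium pump, was higher by 0.79 at 7 h, and BSG, the partner of lactate carriers, was lower by -0.29. Of 6 transporters of other families measured, 4 differed over time (66.7%, against 64.4% of all genes), and the exporters ABCB1 and ABCA1 were higher at 24 h by 3.37 and 1.87.

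Of 9 macrophage markers listed, 5 were measured and 4 of these differed over time (80%, against 64.4% of all genes). CD14 averaged 9.59, 9.61 and 9.66 at 2, 7 and 24 h, against 7.88 at 0 h, and CD163 averaged 9.60, 8.52 and 10.55, against 9.48. CD86 was higher at 24 h by 1.56, MRC1 lower by -0.51 (limma adjusted p = 0.012), and ITGAM differed by 0.06 and was not called. Of 5 T and NK cell markers measured, 1 differed over time (20%, against 64.4% of all genes). The T cell marker CD3E lay between 4.46 and 4.58 on average, while CD2 was higher at 24 h by 3.21. Of 4 granulocyte and precursor markers measured, 3 were higher (75%, against 18.4% of all genes) and 1 lower (25%, against 28.3%) at 24 h against 0 h. S100A9 led at 3.30, LTF and S100A8 were the others higher, and ELANE was lower by -1.79 (limma adjusted p = 3.7e-05). S100A8, higher by 0.80, did not differ over all times (limma F test, adjusted p = 0.063). The summed linear intensity of the 4 was 12839 to 15185 at 24 h and 1098 to 3597 at 0 h. At 24 h S100A9 averaged 13.64 log2 units and the other markers of this list 5.65 to 9.26, so that sum mostly reflects S100A9. The summed T and NK markers were 207 to 1540 at 24 h and 136 to 181 at 0 h. The part of these cells in the 24 h results was not tested. Of 3 red cell and platelet markers measured, HBB was lower by -1.71 and ALAS2 higher by 0.25 at 24 h against 0 h. SLC25A38 and SLC25A37, which serve haem synthesis, were higher at that time, and the part of red cell precursors was not tested.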

How the data were processed

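RNA of 23 macrophage cultures was read on Affymetrix pig arrays. The deposited values are linear intensities per probe set, which the authors computed by RMA; the submitters' processing notes name RMA and affy without versions. Array medians ran from 69.5 to 73.9, so the arrays share a scale, and the number of arrays limits the precision. The log2 of each was taken here, with no further normalization; the plan had assumed that log2 values were deposited.

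Of 24123 probe sets, 124 controls were left out. The platform annotation gave 10069 probe sets 1 gene, 198 several and 13732 none listed; 115 of 117 SLC genes matched RefSeq by ID, and no name changed. Classes follow SLC family number, with the genes named after a carrier set apart.

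Duplicate cultures were averaged, and limma 3.58.1 in R 4.3.3 fitted time and pig to the 12 pig-by-time means (6 residual degrees of freedom). Benjamini-Hochberg adjustment ran over 23999 probe sets, and the threshold was 0.05. The fit was tested on simulated data. The pig block comes from the series design, in which the same 3 pigs supplied every time; pig deviations correlated at 0.34 to 0.73 between times.

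Named genes were the 6 called with the largest rise and fall at each time against 0 h, the 3 each way between successive times, up to 3 per class by F test, and a list of macrophage carriers, of which 10 of 32 were measured. SLC7A7, SLC23A1, SLC25A3, SLC25A4, SLC25A5, SLC25A6, SLC25A12, SLC26A11, SLC27A1, SLC2A5, SLC38A9, SLC39A7 and SLC9A3R2 were named after their values were seen. Members, lists and rules were chosen with earlier results of these data known. Alternatives covered blocks, cultures, scaling, dim probe sets (mean under 6), thresholds, probe set choice, omitted pigs and the labelled times. Sequences and coordinates are not used here.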

Additional observations from a re-analysis of the deposited data

Results flagged for a closer look

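Over 164 combinations of a named gene and a time, 8 had 1 array apart from the rest of its group by a gap that chance gives in about 1 of 20 groups, or 8.2 here, so the number is near what chance gives. At 0 h the arrays apart were pig 2 culture 1 for SLC2A8 (8.80, others 8.46 to 8.58), pig 1 culture 1 for SLC30A5 (8.14, others 8.44 to 8.59) and pig 3 culture 1 for SLC4A4 (5.54, others 6.04 to 6.23). At 2 h it was pig 3 culture 1 for SLC3A2 (7.30, others 7.53 to 7.64), and at 7 h pig 2 culture 2 for SLC30A5 (8.30, others 7.96 to 8.07). At 24 h they were the single culture of pig 3 for SLC1A3 (5.42, others 4.38 to 4.65), pig 2 culture 2 for SLC25A37 (6.56, others 7.29 to 7.46) and pig 1 culture 2 for SLC33A1 (8.03, others 8.63 to 8.88).

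For 3 genes the differences from 0 h were called with opposite signs at different times. SLC1A5 was at 0.64 for 24 h against 0 h and -0.71 for 7 h against 0 h, and the 24 h against 7 h difference was called (1.34, limma adjusted p = 0.00028). SLC46A1 was at 0.71 for 24 h and -0.66 for 2 h, with 1.37 for 24 h against 2 h (limma adjusted p = 7.9e-05). The other SLC46A1 probe set was called against 0 h at neither time. SLC25A30 was at -0.59 for 24 h, -0.32 for 7 h and 0.46 for 2 h, with -0.78 for 7 h against 2 h (limma adjusted p = 0.00056) and -1.05 for 24 h against 2 h (limma adjusted p = 6.7e-05). The differences set side by side share the 0 h samples.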

How the results depend on the processing

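The counts of called SLC genes were 11, 59, 46, 46 and 40 for 2 h, 7 h and 24 h against 0 h, 7 h against 2 h and 24 h against 7 h. Over all times it was 70. With times and pigs as labelled, limma called 0 in each, against 4, 7, 2, 2 and 6 at an unadjusted p under 0.05, and 3 over all times. Requiring a 2-fold change as well gave 2, 24, 13, 14, 13 and 32. At 2 h against 0 h the count was 7 with no replicate block for pig, 22 from all 23 arrays with a random block for each pig at each time, 3 at an adjusted p of 0.01 and 24 from a fit of only those times. For 24 h against 7 h it was 25 with no replicate block, 25 from the second culture only, 24 at an adjusted p of 0.01 and 21 from a fit of only those times. Leaving out each pig gave 2 to 12, 38 to 47, 33 to 41, 28 to 34, 21 to 32 and, over all times, 51 to 58. The other settings (first culture, median centring, quantile scaling, dim probe sets left out, largest-variance probe set and any probe set) kept each count within 1.5 times. No named gene changed sign in its largest called comparison, and 15 of 40 changed by less than 2-fold there. SLC46A1, 7 h against 2 h, lost its call without the pig block (limma adjusted p = 0.10). No detection calls were used here, so how far the 40 genes with a mean under 6 stand above background is not known.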
